A study of Homo sapiens with 4 samples.

Results

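Cyclins and the cyclin-dependent kinases (CDKs) that they activate were followed here as RNAs bound by NSUN2, an RNA methyltransferase that places 5-methylcytosine on tRNAs and mRNAs. A cyclin binds a CDK and switches its kinase on, and the changing supply of cyclins through the cell cycle sets which CDK is active. Cyclins D and E act in G1 and at entry into S phase, cyclins A and B act in S phase and mitosis, and a further branch of the family (cyclins C, H, K, L and T with CDK7, CDK8, CDK9, CDK11, CDK12, CDK13 and CDK19) works on RNA polymerase II and RNA processing. The CDC genes were named for yeast cell division mutants, and include the CDC25 phosphatases that activate CDKs, the anaphase-promoting complex subunits and licensing factors, together with genes such as CDC42, CDC37, CDC40, CDC73 and CDC123 that are known mainly for other work.

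Members were the protein-coding genes with cyclin, CDK or numbered CDC symbols that carried a called NSUN2 peak, and 58 of the 12692 protein-coding genes with a peak met this rule. The study used wild-type PANC-1, an established human pancreatic ductal adenocarcinoma line, given 30 mM sodium lactate or the vehicle ddH2O for 24 h. RNA immunoprecipitated with an anti-NSUN2 antibody (IP) and the input RNA of the same lysate were sequenced, which gave 1 IP and 1 input library per condition and 4 libraries in all. No value therefore has a replicate error, no test between conditions was possible, and one cell line stands for the tumour type. Intervals given with a value cover counting error only.

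The text uses peaks and windows. A called peak is a stretch where an IP library exceeded its own input, and its fold over input is the peak caller's value. A window is the 2000 bases around a merged peak, in which the reads of both IP libraries were counted. All windows have the same length, but their reads are not set against input. Their depth therefore does not compare binding between genes. How spliced and paired reads were assigned to windows is not given in the sources used here, and some strongly called exon peaks had almost no reads in their window, so a read count in an exon may leave out reads that the peak was called on. Leaving out the very deep MT-RNR2 and MALAT1 windows, the windows of all peaks summed to 1945000 reads for lactate and 3536821 for ddH2O, a 1.82-fold difference, with a median of 5 and 7 reads per window. With these 2 windows kept in, the sums were 9756034 and 9553850, nearly equal. The 1.82-fold difference therefore depends on leaving them out. Ratios of lactate over ddH2O are given on 2 scales. One is the MAnorm density deposited by the authors, in which the correction depends on depth. The other divides reads by the library sums without MT-RNR2 and MALAT1. Every ratio and count with library sums rests on that choice, and none was taken with both windows kept in. The ratio compares IP with IP, so more RNA of a gene and more binding per RNA cannot be told apart in it, and the difference in library sums cannot be told apart from a difference in binding common to all windows. All 8 ductal and PANC-1 markers carried a peak (EPCAM and CDH1 with 4 reads or fewer in any library), against 2 of 7 markers of other cells, PTPRC with 0 and 3 reads and COL1A1 with 47 and 50 in lactate and ddH2O.

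Most cyclin, CDK and CDC genes carried NSUN2 peaks. Of the 68 such protein-coding genes in RefSeq, 58 (85.3%) had a peak in at least 1 list, where 60.9% of the 20056 RefSeq protein-coding genes did. The lists differ in length, with 40883 lactate and 78491 ddH2O peaks on 9783 and 12138 protein-coding genes. The lactate list covered 47 members with 217 peaks and the ddH2O list 55 members with 356 peaks, so that members, like other genes, had more peaks in the longer list, and 44 members (75.9%) were in both, beside 72.7% of all protein-coding genes with a peak. CCNA2, CCNL2 and CDK7 had peaks with lactate alone. CCNE1, CCNG2, CCNH, CCNL1, CDC6, CDC23, CDC25A, CDC26, CDK14, CDK15 and CDK18 had peaks with ddH2O alone. Most of these were weak calls, since CCNA2, CCNL2, CCNG2, CCNH, CCNL1, CDC23, CDK14, CDK15 and CDK18 had no peak with a q-value below 0.05. Genes on 1 list differed in how their reads compared. CCNL2, the splicing-related cyclin L2, held 56 lactate and 66 ddH2O reads in its deepest window, whereas CDC26 held 4 and 31.

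No peak lay on CDK2 or CDK4, the partners of cyclin E and cyclin D, nor on CCNA1, CCNB3, CCNG1, CCNI2, CCNJ, CDC14C, CDC20B or CDK3. These 10 genes spanned a median of 10.0 kb (2.9 to 149 kb), against 29.1 kb for the members. CDK6, the other partner of cyclin D, carried the most peaks in the ddH2O list, 39, beside 20 in the shorter lactate list. CDK19, a kinase of the Mediator complex, had 23 and 21, CCNY, a membrane-linked cyclin, had 15 and 24, CDK13 had 13 and 23, and CDK17 had 8 and 20. All of these are long genes, and across members the number of peaks went with gene span (Spearman's rho 0.54 with lactate and 0.61 with ddH2O), as it did across 12224 protein-coding genes (0.45 and 0.56). CDK14, the longest member at 614 kb, was an exception with 0 lactate and 2 ddH2O peaks. Genes are not independent replicates, and the points within a list share 1 library.

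**Figure D1:**
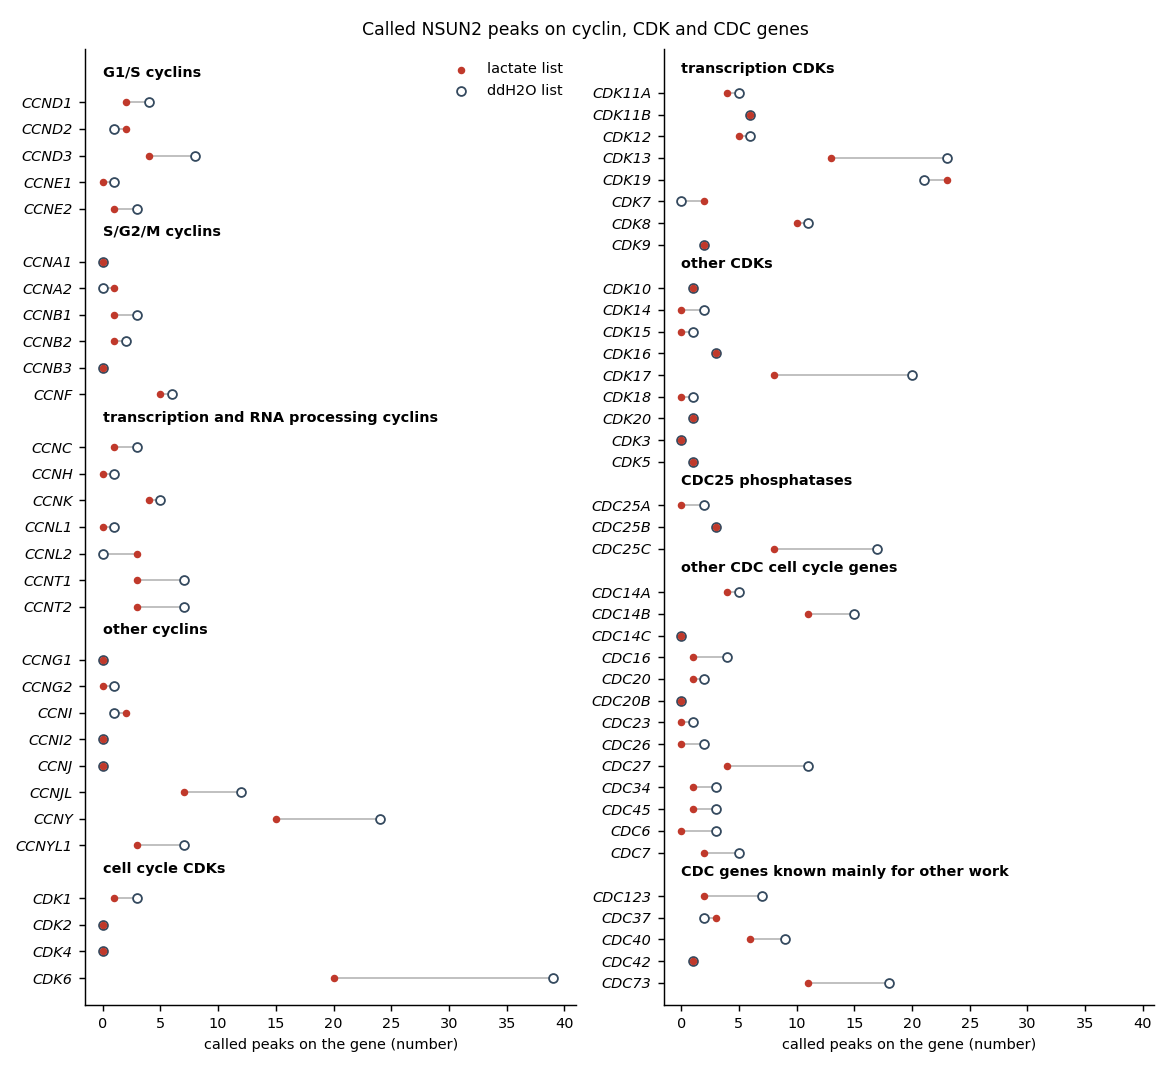
Number of called NSUN2 peaks (horizontal axis) on each of the 68 genes, grouped by role, with lactate (filled points) and with ddH2O (open points). CDK6 had 20 and 39 peaks, whereas CDK2 and CDK4 had 0 in both lists.

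Among all called peaks, introns held more than exons and UTRs. Introns held 65.0% of the lactate peaks of members (95% counting interval 58.2 to 71.3%) and 63.5% of the ddH2O peaks (58.2 to 68.5%), where all protein-coding genes had 61.5% and 61.2%. The 3' UTR held 18.4% and 16.9%, exons outside UTRs 15.2% and 18.3%, and the 5' UTR 1.38% and 1.40%. Each share lay within its interval of the value for protein-coding genes in both lists. Peaks in exons and UTRs were the better supported ones. Among peaks in exons and UTRs of members, 69.7% with lactate and 67.7% with ddH2O had a q-value below 0.05, against 34.8% and 48.2% of those in introns. The peaks of all protein-coding genes were split the same way, with 59.8% and 65.3% in exons and UTRs against 35.1% and 41.8% in introns. At this limit the lactate list had 49 intronic and 53 exon and UTR peaks, so introns no longer led there. Over all regions the share was 47.0% of member peaks with lactate and 55.3% with ddH2O, against a background of 44.6% and 50.9% of peaks of protein-coding genes. An overlap of 1 base or more with the other list was found for 57.1% of member peaks with lactate and 34.0% with ddH2O, where protein-coding genes had 58.3% and 29.8%.

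The highest fold over input of any member peak was on CDK12. The exon peak of CDK12, which phosphorylates RNA polymerase II, at chr17:39461929-39462847 (GRCh38) reached 28.7-fold over input with ddH2O and 8.87-fold with lactate. It was followed in the ddH2O list by an exon of CDK11A (21.2-fold), and by an intron of CDC25C and a 3' UTR peak of CDC14B (both 18.2-fold). CDK11A and CDK11B are near-identical neighbouring copies, so reads may be split between them and their values are uncertain. In the lactate list the highest folds were in an intron of CDC7 (11.5), the kinase that fires replication origins, an exon of CDK11B (10.8) and the 3' UTR of CDK6 (10.5). The median over member peaks was 3.25-fold with lactate and 3.30-fold with ddH2O.

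The deepest windows of members lay in mature mRNA. Of the 51 members with a window of at least 20 reads in both libraries summed, the deepest window was in an exon or UTR for 44 and in an intron for 7, and the 15 deepest were all in exons or UTRs. These 15 windows held 43.1% of the lactate reads and 45.8% of the ddH2O reads of member windows, some of which overlap. The deepest was the 3' UTR of CDC25B, the phosphatase that starts CDK1 activation before mitosis, at chr20:3805491-3806195, with 816 lactate and 1656 ddH2O reads. CCNI, an atypical cyclin, had 731 and 1223 reads in an exon, but its peak stood only 1.11-fold over input with lactate and 1.56-fold with ddH2O. The 3' UTR of CDK6 at chr7:92605640-92606189 had 503 and 1044 reads at 10.5-fold and 10.1-fold over input. An exon of CCND1, which encodes cyclin D1, at chr11:69651047-69651772 had 476 and 716 reads, and the 3' UTR of CDK19 had 318 and 576. The other 10 were CDC20, CDK16, CCNT1, CCNB1, CCNJL, CCNYL1, CCND3, CDC16, CDC40 and CCNY, with 127 to 223 lactate reads and 273 to 387 ddH2O reads.

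None of these 15 windows was past 2-fold between lactate and ddH2O, and few windows of this depth were. Of 1988 exon and UTR windows of protein-coding genes with at least 425 reads, 1.21% were higher and 1.36% lower with MAnorm densities, and 0.252% and 2.21% with library sums. Their log2 ratio ran from -0.40 to 0.59 with MAnorm densities and from -0.47 to 0.29 with library sums. CDC25B stood at 0.33 (95% counting interval 0.20 to 0.45) and -0.16 (-0.28 to -0.04), and CDK6 at 0.18 (0.02 to 0.33) and -0.19 (-0.35 to -0.04), so for both genes the sign depended on the scale. CCND1 stood at 0.59 (0.42 to 0.76) and 0.27 (0.10 to 0.44), and CDK16, which pairs with cyclin Y, at 0.42 and 0.29 (0.04 to 0.54), higher with lactate on both scales. CDC16, an anaphase-promoting complex subunit, stood at -0.40 (-0.70 to -0.11) and -0.47 (-0.77 to -0.19), and CDC40, a splicing factor, at -0.36 and -0.42 (-0.73 to -0.12), lower on both. The CDC16 peak also lies on LOC105370384. For CDC20, CCNT1, CCNB1, CCNJL and CCNY the interval included an equal level on both scales.

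**Figure D2:**
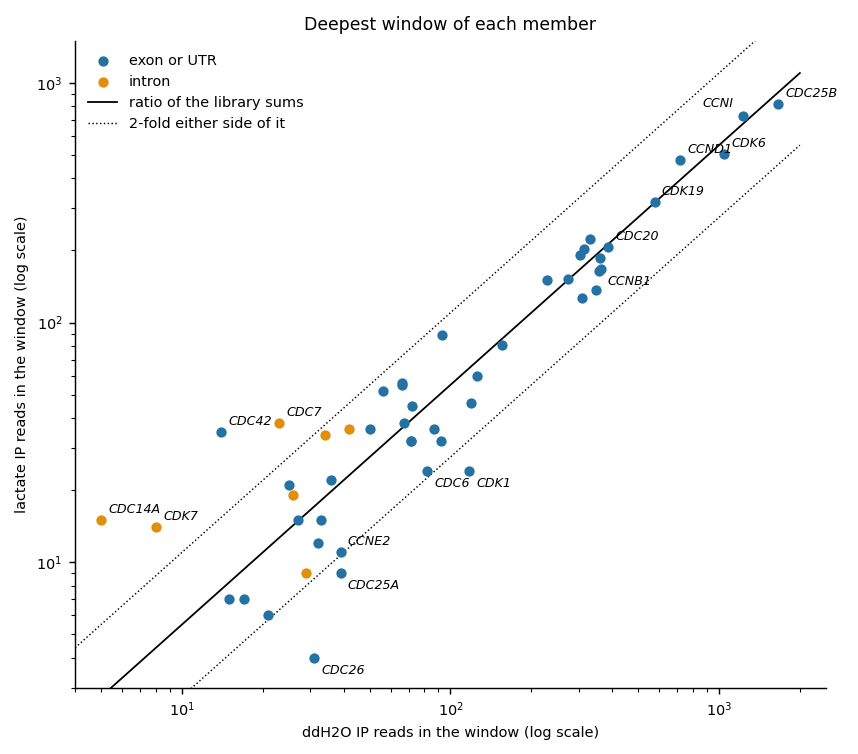
Reads of the ddH2O IP (horizontal axis) and the lactate IP (vertical axis) in the deepest window of each member with at least 20 reads, both on log scales. The solid line is the ratio of the library sums and the dotted lines lie 2-fold either side of it; CDC25B, CCNI, CDK6, CCND1 and CDK19 lie between them, whereas CDK1, CDC25A and CDC26 lie below and CDC42, CDC7, CDC14A and CDK7 above.

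Across all members the ratio was centred like that of other genes. Of 450 merged peaks on members, 171 (38%) had at least 20 reads, and their median log2 ratio was -0.20 with MAnorm densities, the same as the -0.20 of all 37925 such merged peaks. With library sums the medians were 0.06 and 0.13. With MAnorm densities 10 member peaks were more than 2-fold higher with lactate, against a background of 7.65% of merged peaks, and 26 were lower, against 18.6%. This amounts to 5.85% and 15.2% of the 171. With library sums 27 were higher (15.8%, background 17%) and 11 lower (6.43%, background 8.77%). The balance of higher against lower peaks thus turned with the scale, and every share included its background within the counting interval. Of the 450 member windows, 204 share bases with another member window. The windows are therefore not independent, and the intervals may be too narrow.

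The calls were also split by region. Of the 88 member peaks in exons and UTRs, 1 was higher and 16 lower with MAnorm densities, against backgrounds of 2.27% and 19.3% in protein-coding genes, and 4 were higher and 8 lower with library sums, against 6.83% and 9.37%. Of the 83 intronic peaks, 9 were higher and 10 lower with MAnorm densities (backgrounds 13% and 17.3%), and 23 were higher and 3 lower with library sums (backgrounds 27.3% and 7.66%). Introns had fewer reads, with a median of 13 lactate and 19 ddH2O reads against 35.5 and 66.5 in exons and UTRs. With library sums higher calls thus outnumbered lower ones in introns and not in exons and UTRs, while with MAnorm densities lower calls outnumbered higher ones in both; the part of depth in this was not tested. Within single genes, 17 members had windows of at least 20 reads of both kinds, and the median intronic ratio was above the median exon and UTR ratio in 13 of them with library sums (76.5%, 95% counting interval 50.1 to 93.2%), where this held for 69.9% of 2705 protein-coding genes. With MAnorm densities it was 8 of 17 (47.1%), against 60.4%. With library sums the difference of intronic minus exon and UTR medians ran from -2.19 on the log2 scale in CDK12, which had a single intronic window, to 2.13 in CCNK, whose 2 intronic windows also lie on SETD3, and was below 0 in CDK11A, CCNY and CDC25C as well.

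**Figure D3:**
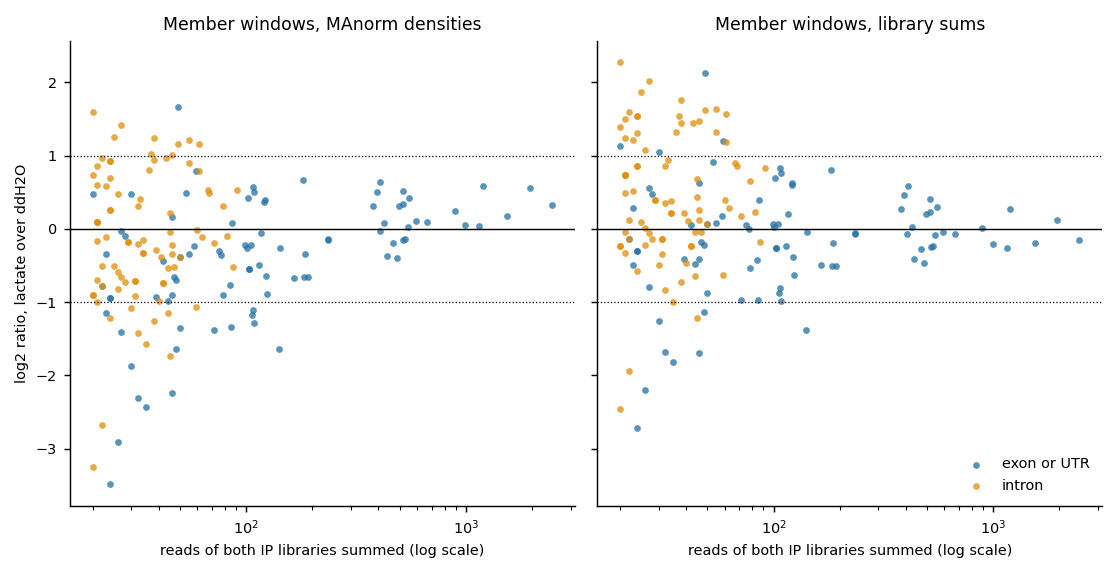
Log2 ratio of lactate over ddH2O (vertical axis) against the reads of both IP libraries summed (horizontal axis, log scale) for the 171 member windows with at least 20 reads, with MAnorm densities on the left and library sums on the right. Blue points are exon or UTR peaks and orange points intronic peaks; dotted lines mark 2-fold, and the deepest window past them is the 5' UTR of CDK1 with 141 reads.

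**Figure D4:**
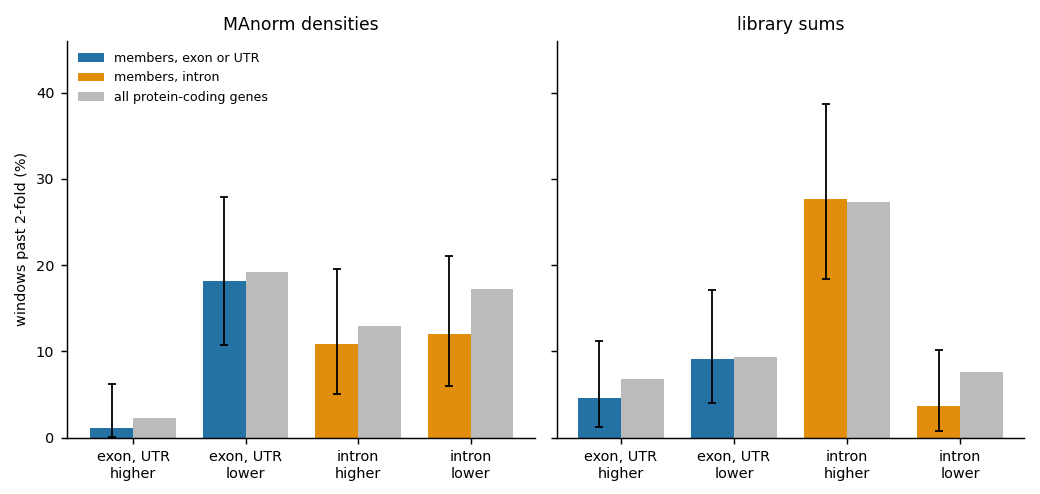
Share of windows past 2-fold (vertical axis, percent) for member exons and UTRs (blue), member introns (orange) and the same regions of all protein-coding genes (grey), by direction and scale; error bars are 95% counting intervals. Each grey bar ends within the interval of the member bar beside it.

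On both scales together, 21 member peaks passed 2-fold in the same direction. The 11 lower peaks lay on 10 genes, 8 in exons or UTRs and 3 in introns, and 10 of them were called in the ddH2O list alone, so they entered through the library in which they are high. They made up 6.43% of the 171, where 8.72% of all merged peaks were lower on both scales. The 10 higher peaks lay on 9 genes, 9 in introns and 1 in a 5' UTR, and made up 5.85%, where 7.59% of all merged peaks were higher. Of these 10, 5 were called in both lists, 2 with lactate alone (CDK13 and CDC42) and 3 with ddH2O alone (an intron each of CDC25C, CDC7 and CCNK), although their windows held more lactate reads. In protein-coding genes 84.2% of the higher peaks were intronic and 57.7% of the lower ones lay in exons or UTRs.

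Among the kinases of the cell cycle, CDK1, which drives entry into mitosis, had the deepest of the lower peaks. Its 5' UTR window at chr10:60778337-60778756 held 24 lactate and 117 ddH2O reads, a log2 ratio of -1.64 with MAnorm densities and -1.38 with library sums (95% counting interval -2.12 to -0.78). The ddH2O peak there was 9.57-fold over input and no lactate peak was called. An exon window of the same gene, which overlaps the first and shares reads with it, held 23 and 85, at -1.29 and -0.98. Another CDK1 peak, in an exon at chr10:60784518-60784759, was 11.5-fold over input with ddH2O, but its window held only 1 and 4 reads. Part of the 5' UTR peak is in the RefSeq start-site sequences (GRCh38.p14), and the 30 bases of it nearest to the summit, chr10:60778498-60778527 on the plus strand, end 35 bases before the summit. They are shown because NSUN2 methylates cytosines, and the 6 cytosines are in capitals.
CDK1: CtCttggaaattgagCggagagCgaCgCgg

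CDK6 showed no such difference in any of its 5 windows in the 3' UTR, where the log2 ratio ran from -0.14 to 0.51 with MAnorm densities and from -0.26 to 0.46 with library sums. Of its 10 intronic windows of at least 20 reads, 2 were lower past 2-fold with MAnorm densities, at 15 against 44 reads (-1.06) and at 7 against 25 reads (-1.42), and neither was with library sums (-0.63 and -0.84). Among intronic peaks of protein-coding genes, 17.3% were lower with MAnorm densities and 7.66% with library sums.

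The G1/S cyclins had lower windows on CCND1 and CCNE2. CCND1 had a lower exon peak near its start, at chr11:69643937-69644151, with 2 lactate and 24 ddH2O reads (-2.91 and -2.20), although the deep CCND1 exon described above was higher with lactate and its 3' UTR window, with 229 and 440 reads, stood at 0.09 and -0.08. Another CCND1 exon window held 13 and 33 reads (-0.90 and -0.42). The CCND1 values therefore differed in sign between windows of 1 gene, and the lower exon windows held few reads. CCNE2, a cyclin E, had 6 and 40 reads in a 5' UTR window (-2.23 and -1.69) and 11 and 39 in an exon (-1.36 and -0.87), in windows that overlap and so share reads. CCNE1, the other cyclin E, had 32 and 71 reads in its 3' UTR (-0.55 and -0.26). CCND3 had 192 and 303 reads in its 3' UTR (0.31 and 0.21), and CCND2 had 4 and 8. Of 8 windows of at least 20 reads in these 5 genes, 3 were lower and 0 higher with MAnorm densities, and 2 and 0 with library sums, all in exons and UTRs, where 19.3% and 9.37% of such peaks of protein-coding genes were lower.

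The S, G2 and M phase cyclins gave no peak past 2-fold on both scales among 8 windows of at least 20 reads, where 8.72% of all merged peaks were lower and 7.59% higher on both. CCNB1, which encodes the main CDK1 partner cyclin B1, had 168 and 362 reads in its 3' UTR (-0.13 and -0.24) and 21 and 57 in an exon (-0.90 and -0.54). CCNB2 had 7 and 15 reads in its only window of at least 20 reads (-0.78 and -0.14). CCNA2, encoding cyclin A2, had a lactate peak with a q-value of 1 and 6 lactate against 0 ddH2O reads, too few for a ratio. CCNF, the substrate receptor of an SCF ubiquitin ligase, had 151 and 228 reads in its 3' UTR (0.31 and 0.27) and 14 and 10 in an intron, past 2-fold with library sums alone (0.70 and 1.31). The CCNF 3' UTR peak also lies on LOC105371050.

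All 3 CDC25 phosphatases carried peaks, with different values. CDC25A, which acts on CDK2 at the G1/S step, was on the ddH2O list alone with 2 peaks in its 3' UTR. The one at chr3:48158365-48158659 stood 11.5-fold over input with ddH2O and its window held 1 lactate and 23 ddH2O reads (-3.49 and -2.72), while the one at chr3:48157161-48157657 held 9 and 39 (-1.64 and -1.14). Both were lower past 2-fold on both scales, in windows that overlap and so share reads. CDC25B, by contrast, was within 2-fold in its deep 3' UTR window. CDC25C, which acts on CDK1, was covered mostly in introns, and its intronic windows went both ways. The window at chr5:138293658-138293939 held 28 and 18 reads (1.01 and 1.47) and the one at chr5:138298159-138298358 held 8 and 37 (-1.74 and -1.22), whereas the CDC25C exon window with 36 and 50 reads stood at 0.08 and 0.40.

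In the transcription branch, the peaks that were higher on both scales were all intronic. CDK13 had a higher intronic peak with 23 and 14 reads (1.02 and 1.54), beside an exon window of 32 and 71 reads (-0.55 and -0.26). CDK19 had one with 25 and 13 reads (1.24 and 1.76), beside its 3' UTR with 318 and 576 reads (0.25 and 0.01). CCNK, encoding the partner of CDK12 and CDK13, had one with 17 and 8 reads (1.25 and 1.86), in a stretch that also lies on SETD3, and exon windows with 11 and 28 and with 12 and 32 reads (-0.93 and -0.98 with MAnorm densities, -0.41 and -0.48 with library sums), in windows that overlap and so share reads. The lower peaks of this branch were an intron of CDK12 with 1 and 19 reads (-3.25 and -2.46), an intron of CDK8 with 2 and 20 reads (-2.68 and -1.94) and an exon of CDK11A with 5 and 25 reads (-1.87 and -1.25). CDK8 is the paralog of CDK19 in Mediator, and 4 of its 9 windows, all of them intronic, were higher with library sums, against 27.3% of intronic peaks of protein-coding genes, and 0 with MAnorm densities, against 13%. The highly enriched exon of CDK12 described above held 49 and 93 reads (-0.25 and -0.05).

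The remaining pairs of this branch did not pass 2-fold on both scales. CCNT1 and CDK9 form the elongation factor P-TEFb. CCNT1 had 186 and 360 reads in its deepest 3' UTR window (0.03 and -0.09) and 184 and 224 in another (0.64 and 0.58), and CDK9 had 15 and 33 (-0.69 and -0.22). CCNH and CDK7 form the CDK-activating kinase, and CCNH had 15 and 27 reads in a 3' UTR peak that also lies on RASA1 (-0.44 and 0.06), while CDK7 had 14 and 8 in an intron (0.96 and 1.60). CCNC, the cyclin of CDK8 and CDK19, had 52 and 56 reads (0.50 and 0.76) in a 3' UTR window that also lies on TSTD3. The library kit does not mark strand, so reads of overlapping genes cannot be separated at these peaks.

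Among the other CDC genes, CDC7 had 2 higher intronic peaks, with 31 and 18 reads (1.16 and 1.61) and 38 and 23 reads (1.16 and 1.56, called with ddH2O alone at a q-value of 0.0863), in windows that overlap and so share reads. CDC14B had a higher intronic peak with 19 and 8 reads (1.41 and 2.01) and CDC14A, a related phosphatase, one with 15 and 5 reads (1.60 and 2.28). CDC42, which acts in cell polarity, gave the single mature mRNA peak of members that was higher on both scales. Its 5' UTR window at chr1:22076426-22076855 held 35 lactate and 14 ddH2O reads (1.66 and 2.13, 95% counting interval 1.25 to 3.19 with library sums). The CDC42 peak there was called with lactate alone, at 2.83-fold over input and a q-value of 0.0147. Outside the CDC genes, CCNY had a higher intronic peak with 35 and 20 reads (1.21 and 1.64), which also lies on CCNY-AS1, beside 3' UTR windows at 0.08 and -0.03 with MAnorm densities.

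Apart from the CDC25C intron, lower peaks of CDC genes on both scales were in mature mRNA. CDC26, an anaphase-promoting complex subunit, had 4 and 31 reads in its 3' UTR (-2.43 and -1.82), and CDC40 had 4 and 28 in an exon (-2.30 and -1.67) beside 127 and 310 in its deepest one. CDC6, which loads the replicative helicase, had 24 and 82 reads in an exon (-1.17 and -0.87) and 18 and 67 in another (-1.34 and -0.98), past 2-fold with MAnorm densities alone. The deeper of these overlaps another CDC6 window and so shares reads. CDC20, the activator of the anaphase-promoting complex, had 207 and 387 reads (0.10 and -0.04) in an exon window that also lies on ELOVL1, 146 and 322 in the next (-0.20 and -0.27) and 25 and 82 in another (-1.11 and -0.81). The deepest CDC20 window overlaps another CDC20 window, so these values share reads. CDC27, another subunit, had 45 and 72 reads in its deepest window (-0.05 and 0.20), 15 and 56 in another 3' UTR window (-1.38 and -0.97), past 2-fold with MAnorm densities alone, and 11 and 9 in a further one (0.47 and 1.13), past 2-fold with library sums alone, and because pseudogene copies of CDC27 exist its reads are uncertain. The deepest CDC27 window also overlaps another CDC27 window and so shares reads.

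Other cell cycle genes were read from a list of 63 CDK inhibitors, pocket proteins, E2F factors, CDK regulators, ubiquitination factors, mitotic kinases and licensing factors. A merged peak lay on 54 of them, and of 131 merged peaks with at least 20 reads 7 were higher and 18 lower with MAnorm densities (backgrounds 7.65% and 18.6%), and 20 were higher and 9 lower with library sums (17% and 8.77%). Past 2-fold on both scales, 9 of the 131 were lower and 7 higher, where 8.72% and 7.59% of all merged peaks were. The lower ones lay on AURKB, GMNN, MCM3, MCM6, ORC6, RB1 and TFDP2, and the higher ones on BUB1B, FBXW7, FZR1, ORC4, RBL1 and TFDP2. The deepest window of a gene did not always go the same way. It stood at -0.82 and -0.39 in ORC4 (17 and 42 reads) and at -0.08 and -0.03 in AURKB (93 and 173). In ORC6 (28 and 127 reads) it stood at -1.51 and -1.28. Among the licensing factors, a group singled out after its values were seen, 9 of 33 peaks were lower with MAnorm densities (27.3%, 95% counting interval 13.3 to 45.5%) and 5 with library sums (15.2%, 5.11 to 31.9%), and both intervals include the backgrounds.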

How the data were processed

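RIP-seq was analysed in PANC-1 cells from 4 libraries (1 IP and 1 input for lactate and for ddH2O). The submitters' processing notes name fastp 0.20.1, HISAT2 2.1.0, MACS2 2.2.7.1, bedtools 2.29.2, HOMER 4.11.1 and DiffBind, and GRCh38. For each condition the authors deposited a peak list, called on the IP with its input as control, that gives every peak's fold (a ratio to input), p-value, q-value and −log10 values, with its gene and region. They merged both lists, ran MAnorm, and deposited a normalized signal (read density) per IP library. The columns of their own comparison (log2 ratio, mean log2 density and P-value) were not used. No per-sample column was left unused.

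The ratio of the density columns was taken per merged peak, and whole reads were recovered from the densities, on the basis of reads plus 1 per kb of a 2000 base window and a line in mean density (slope 0.17, intercept -0.20). Both libraries gave whole reads, within 0.1, in 99.998% of windows. On simulated data with 3 other lines and 20000 windows, 100% of the reads were recovered. Merged peaks took gene and region by an overlap of 1 base. A merged peak was called past 2-fold with at least 20 reads in both windows summed. Intervals are exact (Clopper-Pearson) at the 95% level. They cover counting error only, since PCR reads without molecular identifiers are not independent molecules and overlapping windows share reads. Depth outside the windows, and of the inputs, is unknown.

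With 1 library per group there was no test. The members and lists were chosen with earlier results of these data known. Named are the 15 members with the deepest windows, those with a peak past 2-fold on both scales, and classical cyclin, CDK and CDC genes; others were chosen after their values were seen. All 58 members matched RefSeq, and 99.3% of their merged peaks lay on their own RefSeq span. Alternatives were a q-value below 0.05, a fold of at least 4, equal list lengths, bases covered, an overlap of 50%, other read minimums (10 and 50), another scale, 5 reads added and leaving out CDC genes. The tools were pandas 2.3.3 and numpy 2.4.6 for tables, scipy 1.17.1 for intervals and matplotlib 3.10.9 for plots, in Python 3.11.15.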

Additional observations from a re-analysis of the deposited data

How the results depend on the processing

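No paired analysis was possible because each group has 1 library. Library sums in place of MAnorm densities moved the member peaks past 2-fold to 27 higher and 11 lower and the median log2 ratio to 0.061. They moved the other cell cycle genes to 20 higher and 9 lower. Of the 51 deepest windows with at least 20 reads, those lower went from 7 to 3. Those higher went from 3 to 4, within 1.5 times the main count. These shifts follow from the construction of the scale. No share over all genes was taken for deepest windows. A minimum of 10 reads gave 33 higher and 68 lower member peaks (20 and 39 for the other genes), and 50 reads gave 2 and 8. A fold over 4 gave 0 and 7. The shares of all merged peaks at these other limits were not taken, so these counts have no background beside them. With fewer windows entering, exon and UTR peaks gave 1 and 16 and leaving out CDC genes gave 4 and 16. The median over deepest peaks was -0.051. A q-value below 0.05 put 48.0% of lactate and 55.3% of ddH2O peaks in introns, gave medians of 4.80-fold and 4.85-fold over input and a shared 72.5% of lactate peaks. A fold of at least 4 gave 55.3% of lactate peaks in introns, medians of 5.31-fold and 5.47-fold, and 36 member genes in the ddH2O list. Without CDC genes that list also had 36. Cut to the length of the lactate list it had 55.8% of peaks in introns and covered 44 member genes in place of 55, fewer than the 47 with lactate. An overlap of 50% lowered the shared peaks to 38.7% and 23.6%. The share of members with introns above exons and UTRs, a comparison chosen after seeing the data, went from 76.5% to 47.1% with MAnorm densities. The other 25 of 58 alternative values stayed within their interval or within 1.5 times the main count. Of 64 values for 32 named deepest windows, 59 stayed within the counting interval, and the 5 outside it (CDC25B, CCNI, CDK6, CCND1, CDK19) came with library sums. Most member windows hold too few reads to show less than a 2-fold difference.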

Other observations

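Strongly called peaks did not always have deep windows. Of 114 member peaks with a q-value below 1e-05 in either list, 19 had under 20 reads in the windows of both IP libraries summed, 10 in introns and 9 in exons or UTRs. At the minimum of 20 reads these 19 entered no count or median of ratios. Their share, 16.7% (95% counting interval 10.3 to 24.8%), was near the 15.3% of 21110 such peaks of protein-coding genes. They were looked at after their values were seen. An exon of CDC40 at chr6:110226004-110226408 was called 8.41-fold over input with lactate and 8.25-fold with ddH2O, and its window held 2 and 0 reads. A 3' UTR peak of CDC73, a subunit of the PAF1 complex, at chr1:193232648-193233306 was 7.16-fold and 8.40-fold over input and its window held 1 and 7 reads. An intron of CCNY held 18 lactate and 0 ddH2O reads, where the peak was called with lactate alone at 7.38-fold.

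Peaks on CCNYL2 and CCNYL3, pseudogenes with a matching symbol, were called with ddH2O alone at 1.82-fold over input, with 0 lactate and 2 ddH2O reads each.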
